A study of Mus musculus with 4 samples.

Results

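The small nucleolar and Cajal body RNAs were the genes of the count tables whose symbol in the NCBIM37 annotation starts with Snord, Snora or Scarna in any letter case and that had at least 10 raw counts in at least 2 of the 4 libraries. Of 43629 gene identifiers, 1177 had such a symbol and 130 met the count rule, namely 44 Snord (box C/D), 69 Snora (H/ACA) and 17 Scarna (Cajal body) genes. The members were thus selected on their counts in these same libraries. 82 members had at least 10 counts in every library, 20 in 3 libraries and 28 in 2. Of the latter, 14 reached 10 counts in the controls alone and 1 in the Chaf1b-deleted libraries alone, so the rule took in more members that were high in controls.

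RNA was sequenced from primary mouse HSPCs, CD117+ hematopoietic stem and progenitor cells, of strain C57Bl/6 carrying floxed Chaf1b alleles (fl/fl). Chaf1b encodes a subunit of the histone chaperone CAF-1. Both groups were grown with SCF, IL6, IL3 and LDL and transduced by spinfection, the 2 control libraries with the empty retroviral vector MIGR1 and the 2 Chaf1b-deleted libraries (labelled -/-) with MIGR1-Cre, and eGFP+ cells were sorted 48 h later. Deletion therefore took place in culture in sorted bulk cells, and the RNA is that of the whole population, in which fewer cells of a type and less RNA per cell cannot be told apart. The labels do not say whether replicates came from separate animals, so p-values measure the spread between these libraries, which may be technical. Chaf1b itself had 1825 and 1471 counts in the controls and 378 and 330 in the deleted libraries, a log2 fold change of -2.01 ± 0.25 (SE, n = 2 per group, adjusted p = 0.0330 by the quasi-likelihood test of edgeR, adjusted after Benjamini and Hochberg over all genes).

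Small nucleolar RNAs are short stable RNAs of the nucleolus that pair with other RNAs and guide their chemical modification. Box C/D RNAs guide methylation of the ribose with the methyltransferase fibrillarin, and H/ACA RNAs guide the conversion of uridine to pseudouridine with dyskerin. Most targets lie in ribosomal RNA, a few members are instead needed to cut the ribosomal RNA precursor, and the small RNAs of Cajal bodies modify spliceosomal RNAs. In mammals most are cut out of introns of host genes, many of which encode ribosomal proteins or other parts of the translation machinery, so a member's level depends on its host's transcription and on its own processing and stability. In rapidly dividing blood progenitors they serve ribosome production. The libraries were made from total RNA after removal of ribosomal RNA, without selection of polyadenylated RNA, so RNAs without a poly(A) tail can be included. The paper describes purification of the RNA with a Qiagen RNeasy mini kit. How well RNAs as short as the members were recovered was not tested. Whether counts of members in introns come from the mature small RNA or from unspliced host RNA was not tested either.

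The sequences below are those of the members on which the results turn, read from the NCBIM37 genome 5′ to 3′ on the strand of the gene. The first 4 are box C/D RNAs, with the C box (TGATGA, searched in the first 20 bases) and the D box (CTGA, searched in the last 20 bases) in capitals where present. They are Snord17, the member with most box C/D counts, and Snord118, known as U8 and needed to mature ribosomal RNA of the large subunit. The others are both SNORD18 members in the gene Rpl4, which are similar in sequence. They are called upstream and downstream by their order relative to each other.
Snord17, chr2:144091715-144091952, minus strand: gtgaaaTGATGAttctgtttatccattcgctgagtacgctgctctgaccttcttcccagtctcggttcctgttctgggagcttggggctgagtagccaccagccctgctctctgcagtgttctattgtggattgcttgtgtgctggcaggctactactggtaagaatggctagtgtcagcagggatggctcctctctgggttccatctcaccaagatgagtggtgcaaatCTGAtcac
Snord118, chr11:68886929-68887063, plus strand: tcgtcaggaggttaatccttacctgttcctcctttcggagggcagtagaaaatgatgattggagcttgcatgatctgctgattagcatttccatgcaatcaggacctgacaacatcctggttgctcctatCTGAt
SNORD18, upstream copy in Rpl4, chr9:64023678-64023748, plus strand: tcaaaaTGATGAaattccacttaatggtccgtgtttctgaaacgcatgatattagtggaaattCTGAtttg
SNORD18, downstream copy in Rpl4, chr9:64024930-64025000, plus strand: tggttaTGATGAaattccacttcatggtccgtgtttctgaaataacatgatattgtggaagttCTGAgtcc
The next 5 are H/ACA RNAs or carry that tail, with the ACA of the last 10 bases in capitals. SNORA73, known as U17, acts in cutting the precursor of 18S ribosomal RNA, Snora23 and SNORA53 were nearly absent from 1 library, SNORA14 was low in both deleted libraries, and Scarna13 was among the most abundant Cajal body RNAs.
SNORA73, chr9:120038469-120038671, plus strand: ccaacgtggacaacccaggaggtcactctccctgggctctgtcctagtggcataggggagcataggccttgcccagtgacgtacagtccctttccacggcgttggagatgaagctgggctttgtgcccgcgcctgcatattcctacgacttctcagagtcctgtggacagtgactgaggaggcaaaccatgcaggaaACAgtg
Snora23, chr7:117189878-117190061, plus strand: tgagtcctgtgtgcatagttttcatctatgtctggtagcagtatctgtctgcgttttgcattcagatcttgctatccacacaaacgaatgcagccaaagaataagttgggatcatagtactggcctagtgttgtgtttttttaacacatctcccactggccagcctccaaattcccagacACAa
SNORA53, chr10:90581036-90581281, minus strand: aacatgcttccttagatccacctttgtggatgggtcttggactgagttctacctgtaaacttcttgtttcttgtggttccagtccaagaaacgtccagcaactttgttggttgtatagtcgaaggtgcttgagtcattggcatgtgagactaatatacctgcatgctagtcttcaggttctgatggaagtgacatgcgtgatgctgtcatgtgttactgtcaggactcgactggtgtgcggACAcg
SNORA14, chr8:129468747-129468880, minus strand: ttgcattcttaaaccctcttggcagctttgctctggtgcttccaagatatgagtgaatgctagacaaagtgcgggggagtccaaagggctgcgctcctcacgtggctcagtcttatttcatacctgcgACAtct
Scarna13, chr12:106269285-106269559, minus strand: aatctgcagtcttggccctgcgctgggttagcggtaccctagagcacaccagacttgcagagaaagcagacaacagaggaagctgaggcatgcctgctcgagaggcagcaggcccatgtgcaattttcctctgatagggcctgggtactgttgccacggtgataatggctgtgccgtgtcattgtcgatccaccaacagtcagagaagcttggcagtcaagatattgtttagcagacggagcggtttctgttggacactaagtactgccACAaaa
These boxes were read from the sequence alone and were searched on the strand of the gene. A D box was found in 44 of 44 box C/D members and in 6.82% of windows of the same length ending 200 bases upstream of each. The C box in this exact spelling was found in 61.4% of box C/D members and in 0 of those windows, and Snord118 holds TGATGA outside the first 20 bases. The ACA was found in 58 of 69 H/ACA members (84.1%, against 10.1% of windows) and in 11 of 17 Cajal body members. The D box and the ACA were thus found in most members of the class that carries them, and a member without a match only lacks these letters in that window.

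The members spanned 64 to 414 bases, with a median of 75.5 bases for box C/D, 133 bases for H/ACA and 139 bases for Cajal body RNAs. 114 of the 130 lay in an intron of a longer gene of the same strand, 1 overlapped an exon of its host and 15 lay outside such genes. They had 86 hosts, so members of 1 host are not independent. A symbol can stand for several genomic copies, and the 130 members carried 105 distinct symbols. No stretch of 31 bases recurred elsewhere in the genome for 86 members, whereas over 50% of the stretches did for 7, among them SNORA48 in Gsr (79.8%) and SNORA25 in Taf1d (100%). Counts of those 7 are uncertain, because reads may be shared between copies.

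Most genes whose symbol starts with Snord, Snora or Scarna gave no counts. Of these 1177 genes, 743 were at 0 in every library, 640 of them H/ACA genes, and 1047 fell under the rule in all. Some H/ACA symbols stand for many annotated genes, for example 41 for SNORA70 and 30 for SNORA48, so genes at 0 are not all distinct RNAs by name. Among box C/D genes at 0, 47 of 91 overlapped an exon of a longer gene of the same strand, whereas 0 of the 44 box C/D members did. All 10 genes matching the list of Gas5 and all 11 genes matching the list of Snhg1 were at 0. Snord76 and Snord80 of the Gas5 list matched no gene. Gas5 itself, a noncoding host of box C/D RNAs, had between 3597 and 9285 counts. Imprinted box C/D genes of the brain-expressed Snord115 and Snord116 and the Snord113 clusters gave 0 members of 31 genes, of which 28 were at 0. How the counting treated reads that fall on more than 1 gene was not tested. At the edge of the rule, 6 members had 10 as their second-highest count and 6 genes left out had 9. SCARNA20, just inside, had 14, 7, 8 and 10 counts in control replicates 1 and 2 and deleted replicates 1 and 2, and Snord98, just outside, had 5, 13, 8 and 9.

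Levels were given as CPM, counts per 1000000 counts on genes. The total on genes ranged from 18468637 to 25409926 counts per library, so that a floor of 3 counts was between 0.118 and 0.162 CPM. To compare members of different length, CPM were divided by the length in kilobases and averaged over the 4 libraries. On that scale SNORA48 in Gsr led with 529.8, followed by SNORA73 in Rpsa with 458, Snord17 in Snx5 with 349.7 and Scarna13 with 323. Scarna2, a guide of ribose methylation of the U2 spliceosomal RNA, had 268 and SNORA32 in Taf1d had 253. The next box C/D member, Snord104, had 83.5. Among box C/D members 1 RNA dominated the counts, since Snord17 held 52.8% of those of its class. The top H/ACA and Cajal body members held 19.1% and 37.7% of theirs. Snord17 was also the longest box C/D member, at 238 bases, and how recovery in the libraries depended on length was not tested. The 5 highest Cajal body members (Scarna2, Scarna13, both copies named SCARNA6 and Scarna6 in Atg16l1, and SCARNA21 in Chd3) held 94.6%. In total the members took 0.101%, 0.105%, 0.0645% and 0.103% of gene counts in control replicates 1 and 2 and deleted replicates 1 and 2, with 95% Wilson intervals from 0.0635% to 0.0655% in deleted replicate 1 and from 0.102% to 0.105% in deleted replicate 2, for counting error only.

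Deleted replicate 1 stood apart, and results are given with and without it. For 99 of the 130 members it was the library with the lowest CPM, against 41.5% of 16420 genes with at least 10 counts in 2 libraries. The library also differed from the others elsewhere. Reads that the counting assigned to no gene made up 35.8% of uniquely aligned reads in it against 42.1% to 48.3% in the others. Whether that class holds intronic reads depends on counting settings that are not given. Genes typed as spliceosomal small nuclear RNAs summed to 59.0 CPM in this library against 146 to 201 CPM in the others. The abundant 7SK RNA, a regulator of transcription elongation, was at 16092 CPM in it and between 14552 and 17046 CPM in the others. The part of these differences in the members' values was not tested.

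The question put to the classes was whether box C/D and H/ACA RNAs shifted together when Chaf1b was deleted. Box C/D members summed to 164 and 164 CPM in the controls and to 101 and 199 CPM in deleted replicates 1 and 2. H/ACA members summed to 563 and 568 CPM in the controls and to 255 and 544 CPM in the deleted libraries. Cajal body members summed to 287 and 316 CPM and to 289 and 290 CPM. Box C/D and H/ACA sums were thus low in deleted replicate 1 alone, at 61.5% and 45.05% of the control mean. The Cajal body sum was at 95.9% there. It rested in large part on Scarna2, with 99.7 and 112 CPM in the controls and 135 CPM in deleted replicate 1. Of 14 Cajal body members with at least 10 counts in both controls, 11 lay below their control mean in that library. The sum thus does not stand for most members of the class.

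**Figure D1:**
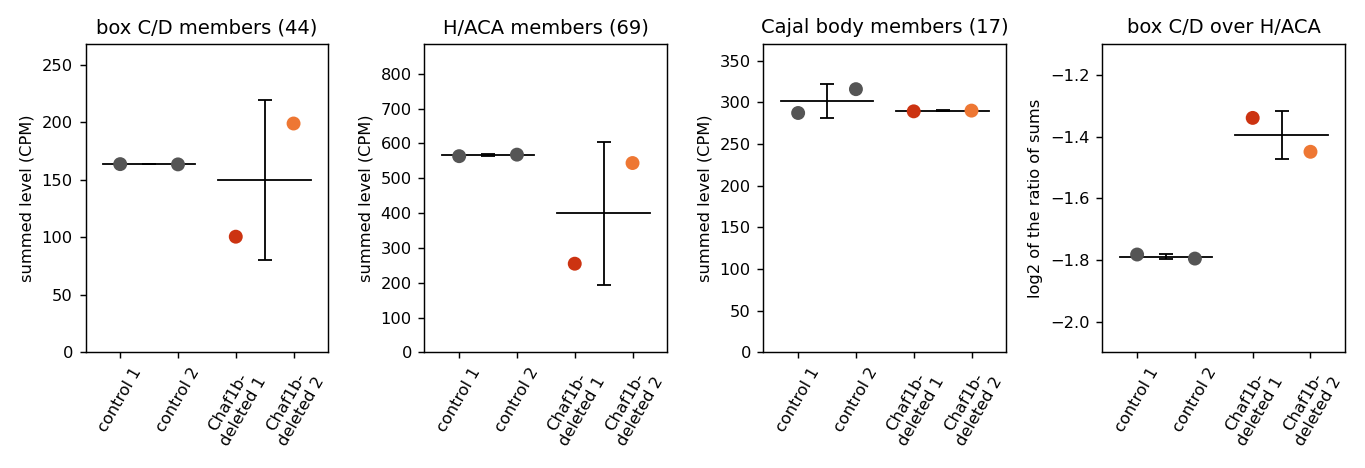
Summed level in CPM (first 3 panels, axis from 0) and log2 ratio of the box C/D to the H/ACA sum (last panel, axis not from 0) in each of the 4 libraries, with horizontal lines for group means and bars for the SD (n = 2). Deleted replicate 1 lies below the other 3 libraries for box C/D (101 CPM) and H/ACA (255 CPM) and among them for Cajal body members (289 CPM).

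The log2 ratio of deleted to control means was -0.13 for box C/D (exact 2-sided permutation p = 1), -0.50 for H/ACA (exact p = 0.33) and -0.06 for Cajal body members (exact p = 1), and with 2 libraries a group p cannot go below 0.33. Without deleted replicate 1 these ratios were 0.28, -0.06 and -0.06, and without deleted replicate 2 they were -0.70, -1.15 and -0.06. For box C/D and H/ACA the difference was smaller than the gap between the deleted libraries, and for Cajal body members it was smaller than the gap between the controls. The balance of the classes moved less between replicates. The log2 ratio of the box C/D to the H/ACA sum was -1.78 and -1.80 in the controls and -1.34 and -1.45 in the deleted libraries, a difference of 0.39 (pooled SD 0.06, exact permutation p = 0.33, the smallest possible). In each deleted library the ratio lay above that of either control. The difference rested in large part on a few RNAs. It was 0.24 without the member with most counts of each class (Snord17 and SNORA73), 0.19 without Snord17 alone and 0.16 over symbols listed once. Without Snord17 and SNORA48 in Gsr, a pair chosen after their values were seen, it was 0.026.

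Member by member, the fit over all genes called none. Of 16500 genes tested, 126 were members, and the quasi-likelihood test of edgeR with Benjamini-Hochberg adjustment called 0 higher and 0 lower at an adjusted p under 0.05 and at least 1.5-fold, against 0.37% of all genes called higher and 0.00606% called lower. The smallest adjusted p of a member was 0.222. At an unadjusted p under 0.05, 7 members were lower (3.1% of all genes) and 0 higher (9.15% of all genes), and 2 of the 7 had met the count rule through the controls alone. DESeq2, edgeR's exact test and its likelihood ratio test also called 0 members. The median log2 fold change was -0.33 over all members tested, -0.33 for box C/D, -0.45 for H/ACA and -0.05 for Cajal body RNAs, beside -0.03 over all genes tested. It was 0.01 without deleted replicate 1 and -0.84 without deleted replicate 2. Values ran from -1.89 to 1.26 with a median standard error of 0.58, against 0.31 for all genes.

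Taken by whether the groups overlapped, 39 of the 130 members had each deleted library below either control, against 23.1% of genes, and 4 were higher, against 21.5% of genes. The count rule had a part in these numbers, since 13 of the 39 met it through the controls alone and 1 of the 4 through the deleted libraries alone. Of the 115 members that met it otherwise, 26 were lower, a share close to the 23.1% of genes, and 3 were higher, against 21.5%. The shares of genes were not filtered in that way.

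The deleted libraries were next set apart, each against the mean of both controls as log2((count + 0.5)/total), over the 115 members with at least 10 counts in both controls. The median ratio was -1.02 in deleted replicate 1 and 0.05 in deleted replicate 2, beside -0.19 and 0.03 over 15208 genes. In deleted replicate 1, 60 of the 115 members were at least 2-fold below the controls, against 12.1% of genes, and 0 were 2-fold above. In deleted replicate 2, 7 were at least 2-fold below, against 1.66% of genes, and 2 were 2-fold above. 6 members were 2-fold below in both. By class, 51.4% of box C/D, 57.8% of H/ACA and 28.6% of Cajal body members were 2-fold below in deleted replicate 1. The median ratio of Cajal body members was -0.57 in deleted replicate 1 and 0.01 in deleted replicate 2. The controls differed from each other by a median of 0.04 over these members. The filter on counts in the controls favours low ratios, and it was the same for both deleted libraries and for all genes. These 115 members are not the 115 of the overlap count. They include the 14 that met the count rule through the controls alone, which have under 10 counts in both deleted libraries by definition. SNORA5, SNORD63 and SNORA36 (11, 10, 1 and 3 counts) are among those 14 and among the 6 that were 2-fold below in both.

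**Figure D2:**
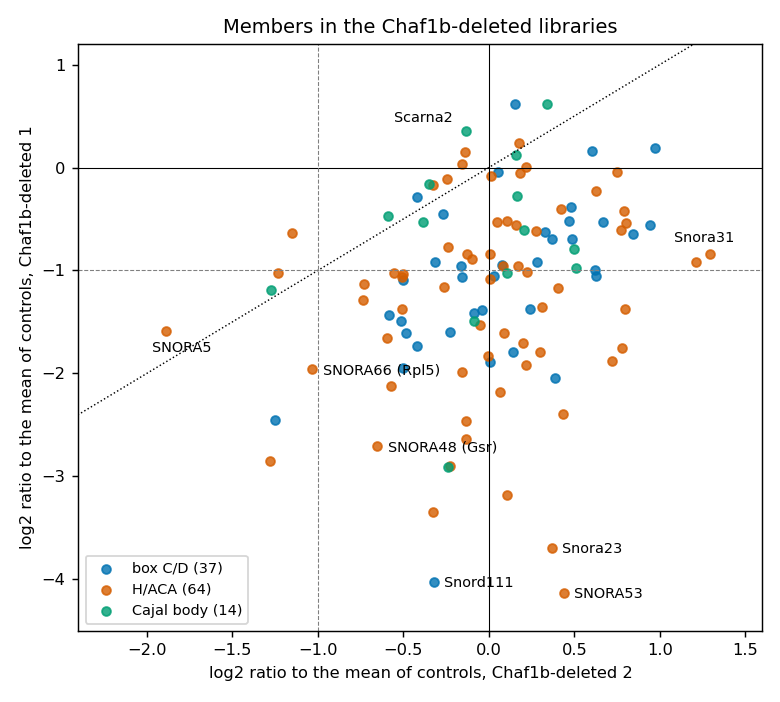
Log2 ratio to the mean of the controls in deleted replicate 1 (vertical) against deleted replicate 2 (horizontal) for the 115 members with at least 10 counts in both controls, coloured by class. Dashed lines mark 2-fold below the controls and the dotted line marks equal ratios; 100 of the 115 points lie below the dotted line.

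Some members were nearly absent from deleted replicate 1 and near control levels in its replicate. SNORA53, hosted by Slc25a3, which encodes the mitochondrial phosphate carrier, had 334 and 326 counts in the controls and 18 and 344 in deleted replicates 1 and 2, that is 17.5-fold lower in replicate 1. Snora23, hosted by the importin gene Ipo7, had 432 and 452 counts and then 33 and 438, 12.9-fold lower. Snord111, hosted by the splicing factor gene Sf3b3, had 40, 42, 2 and 25 counts. Only deleted replicate 1 was low for SNORA53 and Snora23, and their other 3 libraries lay close together. SNORA70 in Rg9mtd1 had 494, 637, 88 and 394 counts, and SNORA79 in Gtf2a1 had 542, 765, 140 and 522. The deleted libraries disagreed widely for these 5, and their fitted changes had large errors, for example -0.58 ± 0.98 (SE) for SNORA53 and -0.62 ± 0.89 for Snora23. Fitted without deleted replicate 2, 5 members were called lower, against 0.245% of all genes in that fit, namely SNORA53, Snora23, SNORA70 in Rg9mtd1, SNORA79 in Gtf2a1 and SNORA48 in Gsr. In that fit the single deleted library is assumed to vary like the others.

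Other members, several of them as abundant, were not low in that library. Scarna2 had 2267, 2846, 3177 and 1784 counts, or 99.7, 112, 135 and 96.6 CPM, and deleted replicate 1 was its highest library. Scarna13, which guides pseudouridine formation in spliceosomal RNA, had 92.3, 101, 86.2 and 75.9 CPM. SNORA12 in Cwf19l1 had 435, 617, 523 and 360 counts. Snora78, hosted by the noncoding gene Snhg9, had 317, 266, 340 and 255. Deleted replicate 1 was thus the highest library in CPM for Scarna2 and Snora78 and lay among the others for Scarna13 and SNORA12. The copies in Atg16l1 had unlike counts, since the copy annotated as SCARNA6 had 983, 1199, 539 and 1187 counts and the one annotated as Scarna6, downstream of it, had 469, 672, 601 and 485 counts.

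**Figure D3:**
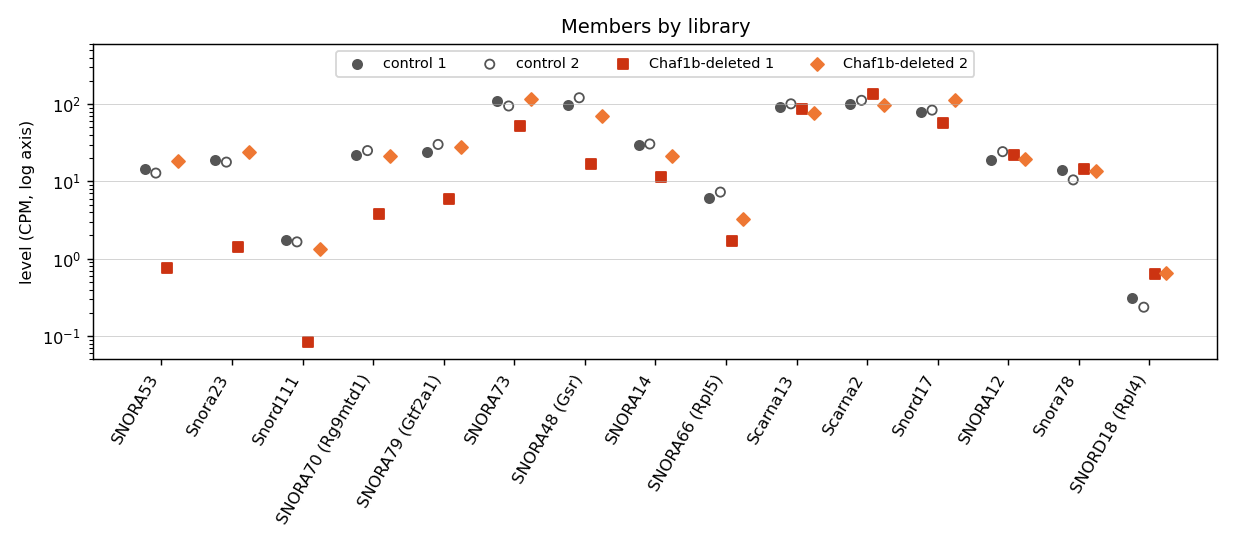
Level in CPM (log axis) of 15 members in each of the 4 libraries, with host genes in brackets where a symbol has several copies. The squares for deleted replicate 1 fall far below the other libraries for SNORA53 and Snora23, among them for Scarna13 and SNORA12, and above them for Scarna2 and Snora78.

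A smaller set was low in both deleted libraries. The 7 members lower at an unadjusted p under 0.05 included SCARNA17, SNORA66 in Rpl5, SNORA14 in Tomm20, SNORA48 in Gsr, SNORA5 in Tbrg4 and SNORD63 in Hspa9. SCARNA17 had 9.41 and 8.22 CPM in the controls and 3.87 and 3.63 CPM in the deleted libraries, a log2 fold change of -1.20 ± 0.35 (SE, n = 2 per group, unadjusted p = 0.00969 and adjusted p = 0.222 by edgeR's quasi-likelihood test). It was the member whose deleted libraries were closest to each other among these. SNORA66 in Rpl5, which encodes a ribosomal protein of the large subunit, had 138, 185, 40 and 60 counts, a log2 fold change of -1.44 ± 0.42. SNORA14 had 669, 775, 271 and 389 counts, and its change was -0.88 ± 0.28. For SNORA66 and SNORA14 both deleted libraries lay below both controls, and deleted replicate 1 was the lower one. SNORA48 in Gsr, the highest H/ACA member per length, had 2227, 3073, 395 and 1284 counts and a change of -1.38 ± 0.51. In deleted replicate 2 alone its level was 1.57-fold below the control mean, and 6.51-fold below in deleted replicate 1. SNORA5 with 13, 20, 5 and 3 counts and SNORD63 with 12, 15, 2 and 4 are the pair that met the count rule through the controls alone. None of the 7 passed adjustment over all genes.

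The 4 members that lay higher in both deleted libraries were low in counts. SNORD18, the downstream copy in Rpl4, had 7, 6, 15 and 12 counts, and met the count rule through the deleted libraries alone. Its log2 fold change, the highest fitted value among members, was 1.26 ± 0.66 (adjusted p = 0.511 by edgeR's quasi-likelihood test). SNORA42 in 2810403A07Rik had 3, 14, 13 and 13 counts, close to the count at which the rule begins. Scarna9 had 15, 18, 25 and 16 counts, and Snord14a, known as U14 and needed to mature 18S ribosomal RNA, had 23, 29, 39 and 22.

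The members known for cutting the ribosomal RNA precursor did not pass the test. The list for this role matched 17 genes, of which 10 were at 0 and 4 were members, with 0 called. Snord118 had 6.51 and 6.73 CPM in the controls and 3.48 and 5.31 CPM in the deleted libraries, a log2 fold change of -0.58 ± 0.36. The 2 copies of SNORA62 and Snora62 in Rpsa had changes of -0.29 ± 0.42 and -1.05 ± 0.50, and Snord14a of 0.45 ± 0.53. SNORA73, whose symbol is written otherwise in the list, had 110, 94.7, 52.8 and 115 CPM, again low in deleted replicate 1 alone. Of the 4 box C/D RNAs listed for Rpl13a, which matched 5 genes, Snord35a alone was a member, with 19, 18, 11 and 20 counts.

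Members of 1 host had unlike ratios in some cases, and differences between them were not tested. Taf1d, which encodes a subunit of the RNA polymerase I initiation factor, hosted 7 members. In deleted replicate 1 their log2 ratios ran from -0.11 for SNORA25 and -0.17 for SNORA32 to -1.17 for SNORA18 and -1.79 for SNORA1, while Taf1d itself was at -0.59. SNORA32 had 671, 647, 576 and 405 counts and was lower in deleted replicate 2 than in replicate 1, whereas SNORA1 had 55, 46, 14 and 48. Snx5 hosted Snord17 with 79.6, 83.7, 56.8 and 113 CPM and a copy of SNORA70 with 1.85, 2.44, 1.61 and 2.87 CPM, both highest in deleted replicate 2. In Rpl4, the upstream copy of SNORD18 had 27, 37, 9 and 18 counts, whereas the downstream copy had 7, 6, 15 and 12. These copies were 71.8% identical base by base and shared no stretch of 31 bases. Another SNORD18 gene, chr9:64022855-64022922, was not a member, with 5, 9, 3 and 7 counts. In Rps12, a ribosomal protein gene, Snora33, Snord100 and SNORD101 were low together in deleted replicate 1, with log2 ratios of -1.83, -1.38 and -1.06, beside -0.92 for Rps12.

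Against hosts in general, 110 members and their 81 hosts could be compared. No host was called higher or lower, and the median log2 fold change was -0.25 for hosts and -0.33 for their members. Across the 110 pairs the fitted changes had a Pearson correlation of 0.30 and a Spearman correlation of 0.28, values that share libraries and scaling and in part hosts. In deleted replicate 1 the correlation of ratios was 0.10 and 88 of 110 members lay below their host, whereas 31 of 110 did in deleted replicate 2. The hosts' own median ratios were -0.37 and -0.16. Slc25a3 was at 255, 216, 250 and 237 CPM and Ipo7 at 298, 242, 209 and 230 CPM, so the hosts of SNORA53 and Snora23 changed far less than the members in deleted replicate 1. Among members with at least 10 counts in both controls, the median ratio in that library was -1.09 in ribosomal protein genes (25 members). It was -1.01 in other hosts (78) and -0.70 without a host (12). By length, the median ratio among members so filtered was -1.05 under 100 bases, -1.02 from 100 to under 150 and -0.98 from 150 bases. Those with and without a stretch of 31 bases elsewhere had medians of -0.95 and -1.03. Sums over all members of a length differed more. In control replicates 1 and 2 and deleted replicate 1 they were 72.2, 68.1 and 36.4 CPM under 100 bases. They were 453, 473 and 222 CPM from 100 to under 150, and 489, 506 and 386 CPM from 150 bases (11 members). The part of length was not tested.

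**Figure D4:**
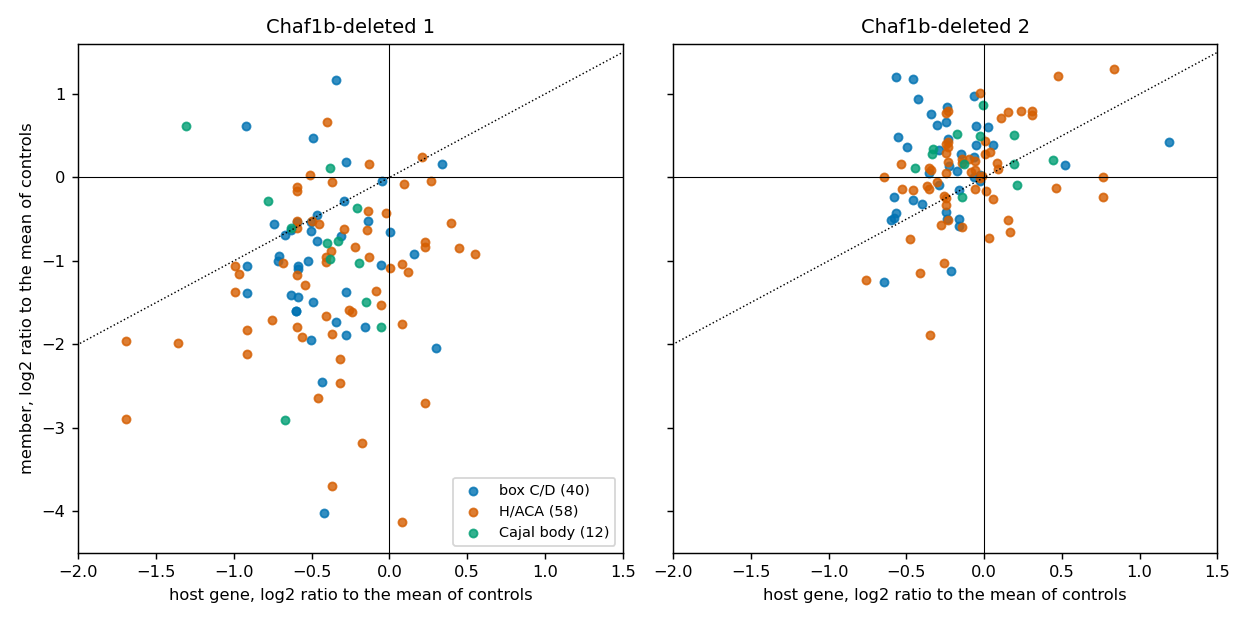
Log2 ratio to the mean of the controls of each member (vertical) against that of its host gene (horizontal) for 110 pairs, in deleted replicate 1 (left) and deleted replicate 2 (right), with the dotted line marking equal ratios. On the left 88 points lie below the line and on the right 31.

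The proteins that carry these RNAs were read from the same fit. The 4 core proteins of box C/D particles (fibrillarin Fbl, Nop56, Nop58 and Nhp2l1) had log2 fold changes between -0.56 and -0.47, and 0 of 4 passed. Nop56, a scaffold of the particle, had 4585, 4396, 2636 and 2580 counts, a change of -0.56 ± 0.21 (unadjusted p = 0.0277, adjusted p = 0.325 by edgeR's quasi-likelihood test). The 4 core proteins of H/ACA particles (dyskerin Dkc1, Nhp2, Nop10 and Gar1) had a median of -0.34, and of 16 assembly and Cajal body factors, median -0.35, none passed either. At an unadjusted p under 0.05 these 3 lists held 1, 0 and 0 genes. Against the controls, the median log2 ratios in deleted replicates 1 and 2 were -0.59 and -0.52 for the box C/D proteins, -0.26 and -0.50 for the H/ACA proteins and -0.22 and -0.46 for the assembly factors. Of the listed noncoding or poorly coding host genes, 10 were found and 9 tested, with 0 called, 2 at an unadjusted p under 0.05 and values from -0.74 for Gas5 to 1.56 for Snhg11. Gas5 had 9285, 7557, 3597 and 5018 counts. Wrap53, the Cajal body protein that binds the localization signal of Cajal body RNAs, had 559, 464, 670 and 511 counts, a change of 0.42 ± 0.25.

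The labelled cell type was checked against markers. Kit, which encodes CD117, had 2489, 3161, 2251 and 2284 counts. The 8 markers of HSPCs summed to between 669 and 934 CPM, with Flt3 called higher, and 8 neutrophil markers summed to 45233 and 52596 CPM in the controls and 65962 and 49647 CPM in deleted replicates 1 and 2, with Cxcr2 called higher. Deleted replicate 1, in which the members were low, thus had the highest neutrophil and the lowest HSPC marker sum. The HSPC markers did not move together. Cd34, Flt3 and Sox4 were higher in that library than in either control, and Kit, Myb, Hoxa9, Meis1 and Gata2 were lower. Macrophage markers summed to between 165 and 507 CPM, mast cell or basophil markers to between 558 and 861 CPM, erythroid markers to between 26.1 and 51.8 CPM, megakaryocyte markers to between 99.4 and 250 CPM, lymphoid markers to between 8.36 and 22.2 CPM and stromal or endothelial markers, mostly Pecam1, to between 220 and 277 CPM, and 0 of these lists had a gene called. The part of cell composition in the members' values was not tested.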

How the data were processed

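Bulk RNA-seq of 4 libraries of mouse HSPCs was analysed, 2 controls and 2 Chaf1b-deleted, grouped by the sample labels. STAR (alignment to mm9) and HTSeq (counting per gene) were used by the authors, and each deposited table holds the raw counts of 1 library. The annotation release and the strand setting of the counting are not given in the sources used here, so reads of overlapping or antisense genes cannot be told apart. Libraries were made with a stranded total RNA kit after ribosomal RNA removal. Gene names came from the annotation of NCBIM37, the same assembly as mm9, for 33068 of 43629 identifiers, and the others hold between 1.60% and 3.12% of a library's counts. Coordinates count from 1.

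Counts were scaled to the total on genes (CPM) for sums and ratios, with 0.5 added before log2 ratios. Differential expression was fitted over all genes that passed edgeR's filter (minimum count 10) with TMM factors by glmQLFit and glmQLFTest without covariates (edgeR 4.0.16, limma 3.58.1, R 4.3.3), and genes were called at an adjusted p under 0.05 and at least 1.5-fold. Standard errors were derived from the fold change and the F statistic. Class sums were compared by an exact 2-sided permutation test over libraries (SciPy 1.17.1). Boxes and stretches of 31 bases were searched in the NCBIM37 genome. The fit was tested on simulated data with known changes. No replicate pair agreed within sampling noise, and none was merged.

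The members and lists were chosen with earlier results of these data known. The text names the 10 box C/D, 10 H/ACA and 5 Cajal body members highest per length, members called, the 5 largest rises and falls among members whose groups do not overlap, members of the lists and members at the edge of the rule, with their hosts. Members low in 1 deleted library only, those low at an unadjusted p, those not low in deleted replicate 1, members of shared hosts and the overlap of genes at 0 with exons were chosen after their values were seen. Of the members low at an unadjusted p, 1 is not reported here. Of the listed other structured small RNAs, 0 of 27 symbols matched the annotation. Alternatives were scaling by library size, by the upper quartile or by the size factors of DESeq2 1.42.0, a DESeq2 test, the exact and the likelihood ratio test of edgeR, no filter or 10 counts in all libraries, other thresholds, other totals for the sums, subsets of members, the replicate block, each library left out in turn, and, chosen after seeing the data, edgeR's newer quasi-likelihood method and class sums without Snord17 and SNORA48.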

Additional observations from a re-analysis of the deposited data

How the results depend on the processing

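Low counts limit most members, and 2 libraries a group limit every test. Leaving out 1 library in turn gave a log2 ratio of the box C/D sum from -0.70 to 0.28, of the H/ACA sum from -1.15 to -0.057 and of the Cajal body sum from -0.12 to 0.012, a median change of members from -0.84 to 0.01, a difference of the log2 box C/D to H/ACA ratio from 0.34 to 0.45, a log2 change of Chaf1b from -2.24 to -1.74, between 0 and 5 members called lower and 0 called higher. The 5 came without deleted replicate 2, and 1, SNORA48 in Gsr, without control replicate 1. Without the low-count filter 1 member, SNORA48 in Gsr, was called lower. Without the member with most counts the Cajal body ratio was -0.17 and the box C/D to H/ACA difference 0.24, which was 0.16 over symbols listed once and, in alternatives chosen after seeing the data, 0.19 without Snord17 and 0.026 without Snord17 and SNORA48 in Gsr. The cause of these shifts was not tested. Other scalings, tests, filters and thresholds left 0 members called.

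The replicate number was also fitted as a replicate block. Over 16500 genes the deviations of same-numbered libraries had a correlation of 0.0133. This check rests on a single difference between replicates in each group, so it cannot decide whether the numbers pair the libraries. With the block, Chaf1b changed by -1.98 (adjusted p = 0.0592 by edgeR's quasi-likelihood test), the median of members was -0.38, the class ratios were -0.21, -0.60 and -0.06, and 0 members were called. The sign of the change of Snord17 turned to -0.0024 with the block.

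Among members named, the sign turned for 9 whose change was small. Over libraries left out, Scarna2 ran from -0.21 to 0.49, SCARNA6 in Atg16l1 from -0.84 to 0.43, SCARNA21 in Chd3 from -0.14 to 0.084, SNORA73 from -0.81 to 0.089, SNORA12 from -0.24 to 0.17, SNORA62 in Rpsa from -0.88 to 0.14, Snord17 from -0.38 to 0.39, Snord15a from -0.031 to 0.098 and Snord35a from -0.58 to 0.41. With upper-quartile scaling SCARNA21 in Chd3 was at 0.0013 and Snord35a at 0.030, and without the filter SNORA12 was at 0.0074 and Snord35a at 0.0044.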

Other observations

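Telomerase RNA is an H/ACA-type RNA of Cajal bodies that serves as the template of telomerase and has no name of the kind that chose the members. The gene that the annotation names Telomerase-vert, chr3:96218360-96218782 in NCBIM37, was looked at after the values were seen. It had 411 and 390 counts in the controls and 2274 and 1832 in the Chaf1b-deleted libraries, or 18.1, 15.3, 96.6 and 99.2 CPM. Its log2 fold change was 2.58 ± 0.22 (SE, n = 2 per group, adjusted p = 0.0173 by edgeR's quasi-likelihood test), higher in 2 of 2 deleted libraries. It was called in 14 of 14 alternative fits at the main thresholds, with log2 fold changes from 2.45 to 2.70. At the stricter thresholds of 2-fold and an adjusted p under 0.01 it was not called, nor was any of the 16500 genes tested. Unlike most H/ACA members it was not low in deleted replicate 1.

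Other structured RNAs, also chosen after their values were seen, differed in deleted replicate 1. The most counted U2 gene, a spliceosomal RNA, had 78.4 and 60.5 CPM in the controls and 12.3 and 89.9 CPM in deleted replicates 1 and 2. The U6atac gene of the minor spliceosome had 8.75, 10.2, 1.23 and 5.14 CPM and the U12 gene 6.20, 4.29, 1.44 and 6.98 CPM. The most counted Y RNA gene had 11.4, 6.41, 2.72 and 11.4 CPM. RNase MRP RNA, which cuts the ribosomal RNA precursor, had 889, 1373, 1996 and 1754 CPM (log2 fold change 0.77 ± 0.32, adjusted p = 0.383 by edgeR's quasi-likelihood test). The U2, U12, U6atac and Y RNA genes were thus lowest in the library in which box C/D and H/ACA members were low, and RNase MRP RNA and the Telomerase-vert gene were not.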
